A study of Mus musculus with 2 samples.

Results

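The Iroquois homeobox genes Irx1 to Irx6 lie in 2 clusters of the mouse genome, and this account covers the enrichment peaks called across both. Its members are all peaks touching 1000 kb of chromosome 8 that hold Irx3, Irx5 and Irx6 (chr8:94250001-95250000, mm9) or 1500 kb of chromosome 13 that hold Irx1, Irx2 and Irx4 (chr13:72000001-73500000). They numbered 79 of 45579 peaks in E14 mouse embryonic stem cells transfected with a short hairpin RNA against Dnmt3L (shDnmt3L, 1 library). They numbered 82 of 55292 peaks in the same cell line transfected with a hairpin against GFP (shGFP, 1 library), the control. Of these, 52 shDnmt3L and 53 shGFP peaks lay in the chromosome 8 cluster, and 27 shDnmt3L and 29 shGFP peaks in the chromosome 13 cluster. E14 is a line of pluripotent cells in culture, and Dnmt3L is a protein without enzyme activity of its own that binds the DNA methyltransferases Dnmt3a and Dnmt3b. Whether the hairpin lowered Dnmt3L was not analysed here.

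The titles and the design of the series point to 5-methylcytosine (MeDIP), whereas the protocol gives a glucosylation-based capture with a kit for 5-hydroxymethylcytosine. The modification is left unnamed here for that reason, and the peaks are called enrichment peaks. With 1 library per group there is no replicate error and no p-value, so every comparison below is between these libraries only. Read depth is unknown.

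Iroquois genes encode transcription factors with a homeodomain of the TALE type, and they pattern the neural tube, heart, limb and other organs of the embryo. Irx3 and Irx5 act in neural, limb and heart development, and Irx6 is expressed in retinal bipolar cells. Irx4 marks the ventricles of the heart, and Irx1 and Irx2 are expressed in overlapping patterns in the nervous system and other organs. The genes stand far apart within each cluster, and the long intervals between them are known to carry distant regulatory elements. In embryonic stem cells such developmental genes are silent or nearly so, and their CpG-rich starts are classical Polycomb targets.

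In the gene order of the RefSeq table (GRCm38), Fto precedes Irx3 and Mmp2 follows Irx6, while Adamts16 precedes Irx1 and Ndufs6 follows Irx4. No other protein-coding gene stands between the Iroquois genes of either cluster. Whether the neighbouring genes reach into the intervals or gene zones used here was not determined. No annotation of mm9, the build of the peaks, was used. Each gene was placed to the nearest 100 kb from general knowledge of mm9. A gene zone is the 100 kb on either side of that place, clipped to the cluster, and the rest is called the long intervals. Which peak overlies which promoter or exon was therefore not determined.

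Promoter sequences, 250 bases before to 50 after the gene start, were in the RefSeq table of GRCm38.p6 for 3 of the 6 genes. They are shown because the captured modification sits mainly on cytosines of CG pairs, which stand in capitals. Each is written 5′ to 3′ on the strand of the gene, minus for Irx3 on chromosome 8 and plus for Irx2 and Irx4 on chromosome 13.
Irx3: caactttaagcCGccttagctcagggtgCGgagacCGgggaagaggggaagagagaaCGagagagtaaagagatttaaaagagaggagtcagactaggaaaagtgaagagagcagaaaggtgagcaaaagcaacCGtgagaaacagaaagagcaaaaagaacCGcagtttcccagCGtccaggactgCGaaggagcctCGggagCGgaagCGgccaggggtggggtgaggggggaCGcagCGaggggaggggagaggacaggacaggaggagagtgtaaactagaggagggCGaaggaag
Irx2: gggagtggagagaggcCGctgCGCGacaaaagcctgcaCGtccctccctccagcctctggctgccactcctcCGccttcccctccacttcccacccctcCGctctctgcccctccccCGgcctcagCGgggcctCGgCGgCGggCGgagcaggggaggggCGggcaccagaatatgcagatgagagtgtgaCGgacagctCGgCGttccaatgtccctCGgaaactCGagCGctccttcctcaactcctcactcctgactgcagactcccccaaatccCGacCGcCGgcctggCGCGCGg
Irx4: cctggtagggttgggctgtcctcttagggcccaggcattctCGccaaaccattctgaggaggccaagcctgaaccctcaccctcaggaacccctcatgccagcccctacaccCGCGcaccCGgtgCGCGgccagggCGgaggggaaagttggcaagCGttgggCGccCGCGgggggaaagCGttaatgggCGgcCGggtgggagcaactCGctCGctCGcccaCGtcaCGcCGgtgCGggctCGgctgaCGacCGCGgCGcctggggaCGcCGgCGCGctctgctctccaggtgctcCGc
The motif CG reads the same on both strands and cannot overlap itself. It occurred 14 times in the Irx3 sequence, 25 times in that of Irx2 and 31 times in that of Irx4. Among all 32851 promoters of the table the median was 7, and 94.6% held at least 1. At least as many as for Irx3 were found in 36.3% of promoters, at least as many as for Irx2 in 18.4%, and at least as many as for Irx4 in 10.6%. The peaks could not be laid on these sequences, since the builds differ.

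At both clusters the shDnmt3L library had about as many peaks as the control library but more sequence under them. Peaks covered 175 kb of the chromosome 8 cluster in shDnmt3L and 116 kb in shGFP, a ratio of 1.51. They covered 94.2 kb of the chromosome 13 cluster in shDnmt3L and 58.7 kb in shGFP, a ratio of 1.61. The whole lists had a ratio of 1.05. The ratio of peak numbers was 0.981 on chromosome 8 (exact conditional 95% interval 0.656 to 1.47) and 0.931 on chromosome 13 (0.530 to 1.63). For the whole lists it was 0.824, which lies inside both intervals. A difference in peak number was thus not detectable within either cluster. These intervals, and the Wilson intervals below, hold for counting error only, as if neighbouring peaks were independent.

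A covered length at least 1.5-fold higher in shDnmt3L was found in 5.15% of 1690 windows of 1000 kb across the genome, and in 3.94% of 1294 windows of 1500 kb. On the clusters' own chromosomes the shares were 2.97% of 101 windows on chromosome 8 and 7.35% of 68 windows on chromosome 13. The chromosome 8 cluster lay just past this fold, and 82 of the 1690 windows had a ratio as high or higher. For the chromosome 13 cluster it was 37 of the 1294. With the chromosome 8 interval widened by 250 kb on either side, its log2 ratio was 0.38 against 0.60, no longer past 1.5-fold.

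The stretches of equal length directly outside the clusters did not share one direction. Before the chromosome 8 cluster, peaks covered 113 kb in shDnmt3L and 134 kb in shGFP, and after it 60.0 kb in shDnmt3L and 50.2 kb in shGFP. Before the chromosome 13 cluster they covered 25.9 kb in shDnmt3L and 28.1 kb in shGFP, and after it 55.1 kb in shDnmt3L and 39.5 kb in shGFP. The 4 flanks held no peak of 10 kb or more in either library. The chromosome 8 cluster was the denser of the clusters, with 17.5% of its length under shDnmt3L peaks and 11.6% under shGFP peaks. For all of chromosome 8 the values were 12.0% in shDnmt3L and 10.7% in shGFP. On chromosome 13, 6.28% of the cluster was covered in shDnmt3L and 3.91% in shGFP, against 4.13% of the chromosome in shDnmt3L and 3.93% in shGFP.

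**Figure D1:**
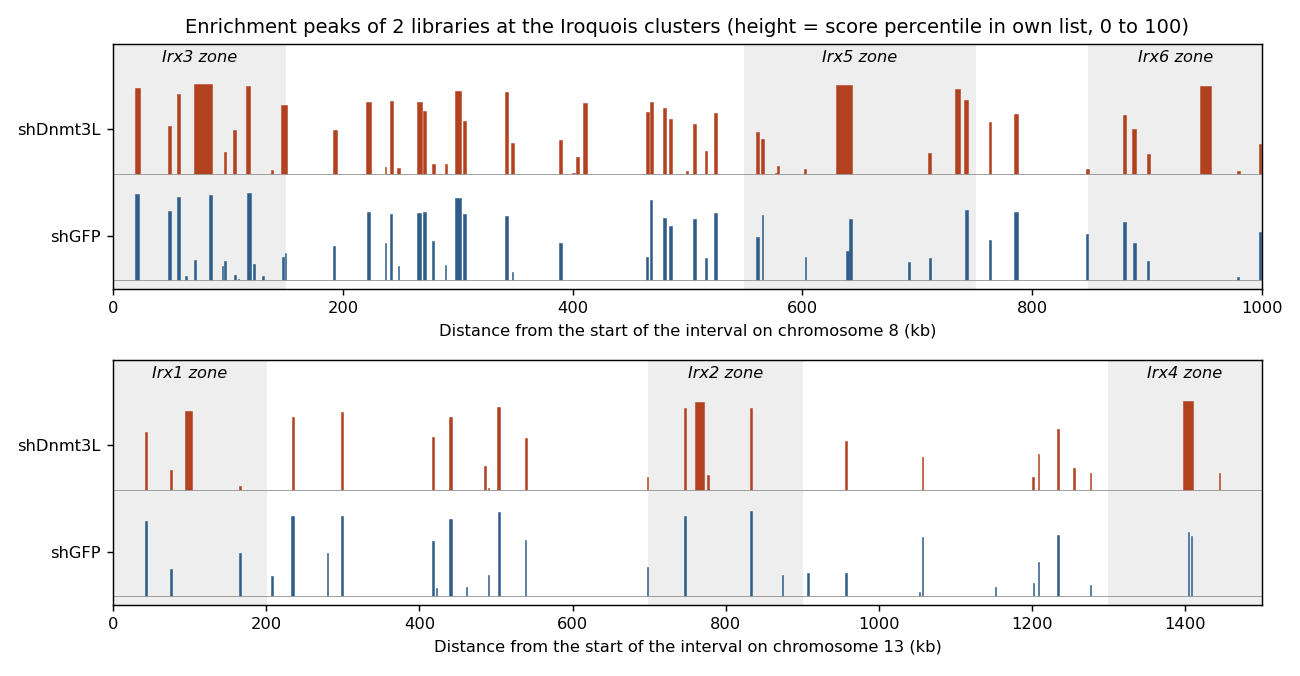
Peaks of the shDnmt3L library (upper row) and the shGFP library (lower row) along each cluster. The x axis is the distance in kb from the start of the interval, bar width is peak width, bar height is the percentile of the peak's score within its own list (0 to 100), and grey bands mark the gene zones. Each of the 6 zones has 1 wide shDnmt3L block between 9.36 and 16.3 kb, that of Irx1 being 2 peaks 122 bp apart. Outside these blocks, peaks covered 58.7 kb in shDnmt3L and 55.8 kb in shGFP on chromosome 13. On chromosome 8 they covered 136 kb in shDnmt3L and 106 kb in shGFP.

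Over both clusters together, the gain in covered length lay mainly in the gene zones. In the 6 zones together, 1100 kb of the 2500 kb of both clusters, peaks covered 149 kb in shDnmt3L and 73.2 kb in shGFP, a ratio of 2.03. In the long intervals they covered 121 kb in shDnmt3L and 101 kb in shGFP, a ratio of 1.19. The zones thus held 75.5 kb of the net difference of 95.1 kb, or 79.4%. The clusters differed in this. On chromosome 13 the zones had 53.5 kb in shDnmt3L and 16.2 kb in shGFP, a ratio of 3.31, and the long intervals 40.7 kb in shDnmt3L and 42.5 kb in shGFP, a ratio of 0.958. On chromosome 8 the zones had 95.2 kb in shDnmt3L and 57.1 kb in shGFP, a ratio of 1.67, and the long intervals 80.1 kb in shDnmt3L and 58.7 kb in shGFP, a ratio of 1.36. With zones of 50 kb on either side of each gene, the log2 ratio in the chromosome 13 zones was 2.62 against 1.73. When peaks scoring under 100 were left out, that of the chromosome 8 zones was 1.39 against 0.74.

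By gene, the zone of Irx4 had the highest ratio of covered length, 5.55, with 16.2 kb in shDnmt3L and 2.92 kb in shGFP. The Irx2 zone had 20.2 kb in shDnmt3L and 6.99 kb in shGFP, a ratio of 2.89. The Irx1 zone had 17.1 kb in shDnmt3L and 6.25 kb in shGFP, a ratio of 2.73. These 3 zones of chromosome 13 all had fewer than 4% of their length under control peaks, between 1.46% for Irx4 and 3.49% for Irx2. The Irx5 zone had 34.0 kb in shDnmt3L and 16.6 kb in shGFP, 17.4 kb more in shDnmt3L or a log2 ratio of 1.03. The Irx6 zone had 21.6 kb in shDnmt3L and 10.6 kb in shGFP, a ratio of 2.04. The Irx3 zone had 39.6 kb in shDnmt3L and 29.9 kb in shGFP, a ratio of 1.32, and was the only zone below 1.5-fold. It was also the zone most covered in the control library, at 19.9% of its length.

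Among 7118 windows of 200 kb with at least 5 kb covered in the lists together, 12.4% had a covered length at least 1.5-fold higher in shDnmt3L and 14.1% at least 1.5-fold lower. The 1.5-fold level was passed by 5 of the 6 zones. Windows with a ratio as high as that of the Irx4 zone made up 0.674%, for Irx2 2.57%, for Irx1 2.82%, for Irx5 5.31%, for Irx6 5.34% and for Irx3 18.8%. The zones of Irx3 and Irx6 were clipped to 150 kb by the interval, so their windows are somewhat longer than the zones.

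**Figure D2:**
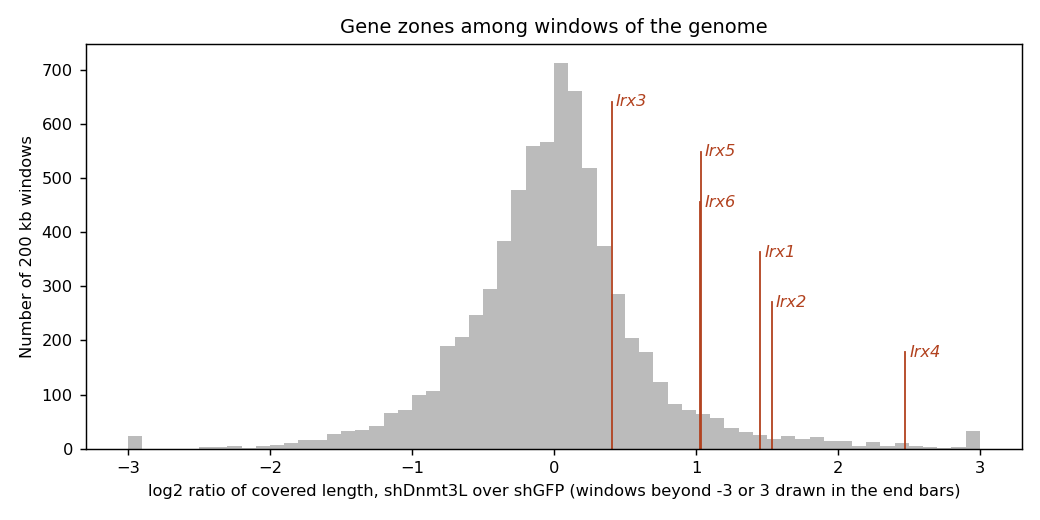
Histogram of the log2 ratio of covered length (shDnmt3L over shGFP, x axis) over 7118 windows of 200 kb (number of windows, y axis), with a vertical line at the value of each gene zone. The line heights carry no value; the zones lie between 0.41 for Irx3 and 2.47 for Irx4, all above the window median of 0.01.

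**Figure D3:**
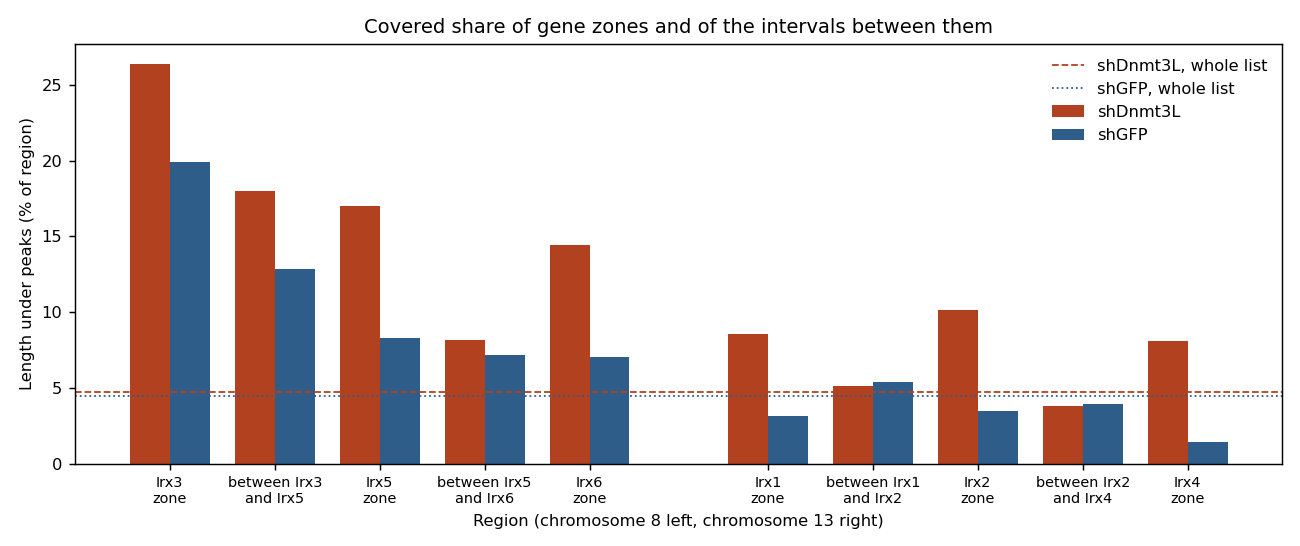
Length under peaks as a percentage of each gene zone and of each interval between zones, for shDnmt3L (left bar) and shGFP (right bar), with 1 library per bar and no error. Dashed and dotted lines give the whole lists, 4.71% for shDnmt3L and 4.48% for shGFP. The bars part most at the zones, while the intervals of chromosome 13 are near equal in both libraries.

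In 5 of the 6 zones most of the difference lay in 1 wide stretch of shDnmt3L enrichment, the exception being Irx5. A stretch here is a peak, or peaks within 500 bp of each other, and this measure was chosen after the values were seen. Each was picked as the widest in shDnmt3L, which favours a shDnmt3L excess inside it. The widest shDnmt3L stretch of each zone measured 16.3 kb for Irx3, 13.9 kb for Irx4, 13.7 kb for Irx5, 11.8 kb for Irx2, 10004 bp for Irx1 and 9.36 kb for Irx6. The stretch next in width within these zones was 5.50, 2.33, 4.26, 3.14, 2.63 and 3.52 kb long, in the same order. A shDnmt3L stretch of at least 9.36 kb was found in 5.52% of the 200 kb windows. Since that width is the narrowest of the 6 stretches themselves, all zones reach it by construction, and the share only describes how common such widths are. In the shGFP library the widest stretch of these zones was 5.54 kb, for Irx5, and those of the others were between 1.58 kb for Irx4 and 4.17 kb for Irx3. The wide stretches lay 544 kb apart from Irx3 to Irx5, 303 kb from Irx5 to Irx6, 656 kb from Irx1 to Irx2 and 625 kb from Irx2 to Irx4.

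In the Irx3 zone the stretch was a single shDnmt3L peak, chr8:94319967-94336220, with a score of 2516.3, rank 32 of the list by score and rank 50 by width. Scores are the authors', from their peak caller, and ranks hold within 1 list only. The control library had a peak at each edge of it, chr8:94320153-94322112 and chr8:94333648-94336100. The left one was 1960 bp wide and stood at percentile 22.2 of control scores, the right one was 2453 bp wide and stood at percentile 95.7. The 11.5 kb between them, the inner part of the shDnmt3L peak, had no control peak, and 27.2% of the shDnmt3L peak was covered in shGFP.

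In the Irx5 zone the shDnmt3L peak chr8:94879735-94893405 was 13.7 kb wide with a score of 1637.31, rank 89. Control peaks of 3297 and 2157 bp, 89 bp apart, lay under its right end and covered 39.9% of it. The left 7.99 kb had no control peak. In the Irx4 zone the shDnmt3L peak chr13:73396715-73410567 was 13.9 kb wide with a score of 1517.53, rank 111. Control peaks of 1581 and 1335 bp lay in its right part and covered 21.0% of it, and the left 7.34 kb had none. Those were the only control peaks of the Irx4 zone.

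The stretches of Irx6, Irx1 and Irx2 had no control peak at all. The Irx6 peak, chr8:95196498-95205857, had a score of 701.36, rank 755, and its nearest control peak was 23088 bp away. The Irx2 peak, chr13:72759732-72771484, had a score of 626.58, rank 988, and its nearest control peak was 11826 bp away. The Irx1 stretch was made of a 4461 bp peak, chr13:72093431-72097891, and a 5421 bp peak, chr13:72098014-72103434, which were 122 bp apart. Their scores were 277.68 and 269.12, ranks 5281 and 5572, and the nearest control peak was 16676 bp away. The Irx1 stretch was the lowest of the 6 in score, and as 2 peaks it does not count among peaks of 10 kb or more.

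**Figure D4:**
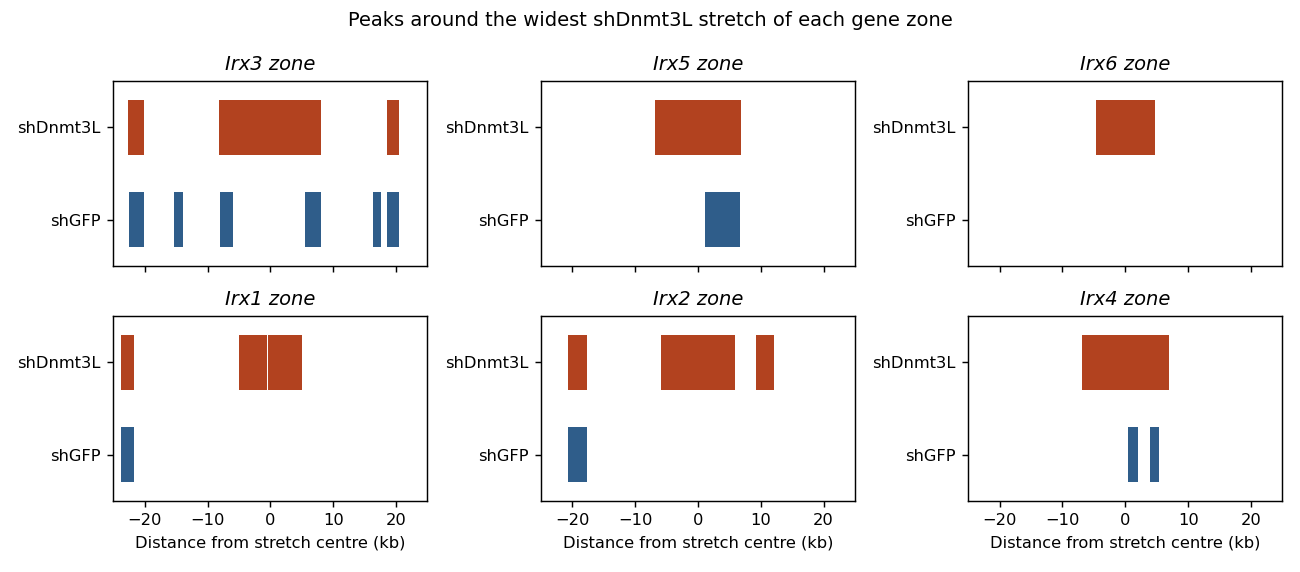
Peaks within 25 kb of the centre of the widest shDnmt3L stretch in each gene zone, with shDnmt3L blocks above and shGFP blocks below; the x axis is the distance from the stretch centre in kb. The 6 stretches, 9.36 to 16.3 kb wide, stand over 2 control peaks each for Irx3, Irx5 and Irx4 (those of Irx5, 89 bp apart, merge in the drawing) and over none for Irx6, Irx1 and Irx2.

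Within the 6 stretches, shDnmt3L peaks covered 74.8 kb and shGFP peaks 12.8 kb, which left 62.0 kb or 65.2% of the net difference of both clusters. On chromosome 13 the 3 stretches held 32.6 kb of a net 35.5 kb. Outside them, peaks covered 58.7 kb of the chromosome 13 cluster in shDnmt3L and 55.8 kb in shGFP, a ratio of 1.05. On chromosome 8 the 3 stretches held 29.4 kb of a net 59.6 kb. Outside them, peaks covered 136 kb in shDnmt3L and 106 kb in shGFP, a ratio of 1.28. The stretches were picked as the widest in shDnmt3L, and that choice favours a shDnmt3L excess inside them. It also lowers the ratios outside them. The whole chromosomes, with no stretch removed, had ratios of 1.12 on chromosome 8 and 1.05 on chromosome 13. They are therefore not like for like with the ratios outside the stretches. Around the Irx3 stretch the rest of the zone had less length in shDnmt3L, 23.3 kb, than in shGFP, 25.5 kb. Around the Irx5 stretch it had 20.3 kb in shDnmt3L and 11.2 kb in shGFP, a difference of 9.19 kb, more than the 8.22 kb inside the stretch. Around the other 4 stretches the rest of the zone differed by 0.955 to 2.33 kb, with more in shDnmt3L.

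A width of 5 kb was reached by 8 of 79 peaks in shDnmt3L and 0 of 82 in shGFP, against 5.18% of all shDnmt3L and 1.34% of all shGFP peaks. A width of 10 kb was reached by 4 peaks in shDnmt3L and 0 in shGFP, against 0.535% of all shDnmt3L and 0.0524% of all shGFP peaks. For shGFP the count of 0 is near these background shares. Joined within 500 bp, 1 shGFP stretch of the clusters passed 5 kb, that of Irx5. Chromosome 8 is rich in wide peaks, and 10.3% of its shDnmt3L and 3.68% of its shGFP peaks reached 5 kb. Its Iroquois cluster was close to this in shDnmt3L, with 9.62% (5 of 52). On chromosome 13 the share was 2.47% of shDnmt3L and 0.468% of shGFP peaks, and 11.1% (3 of 27) of shDnmt3L peaks in the cluster. A width of 10 kb was reached by 1.17% of chromosome 8 shDnmt3L peaks and by 3.85% (2 of 52) in its cluster. For chromosome 13 it was 0.617% of shDnmt3L peaks and 7.41% (2 of 27) in the cluster. Of the 8 peaks of 5 kb or more, 7 lay in gene zones. The exception was chr8:94547281-94552546, 5266 bp wide with a score of 342.61, between Irx3 and Irx5. It overlapped the widest control peak of both clusters, chr8:94547906-94552415, of 4510 bp and score 330.44. The remaining one in a zone was chr8:94395926-94401428, 5503 bp wide with a score of 182.42, near the right edge of the Irx3 zone. It overlapped 2 control peaks that covered 67.7% of it.

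Apart from the wide stretches, the ordinary peaks of the clusters were mostly found in both libraries. The median width over both clusters was 2597 bp in shDnmt3L and 2006 bp in shGFP, and over the whole lists 2376 bp in shDnmt3L and 1998 bp in shGFP. In 60 cases 1 peak of each list overlapped the other and nothing else. The shDnmt3L peak was the wider in 55 of these pairs, or 91.7%, against 81.7% of all 37952 such pairs. At least 1.5-fold wider were 7 of the 60, or 11.7%, against 8.6% of all pairs. The median extra width was 408 bp for the 41 pairs of the chromosome 8 cluster and 148 bp for the 19 pairs of the chromosome 13 cluster, against 145 bp for all pairs. Pairs of the whole chromosomes were not summarised. Median peak width was 2524 bp in shDnmt3L and 2191 bp in shGFP on chromosome 8. On chromosome 13 it was 2312 bp in shDnmt3L and 1934 bp in shGFP. The median extra width of the pairs was 296 bp in the gene zones (21 pairs) and 407 bp in the long intervals (39 pairs). The width ratio of the pairs ran from 0.862 to 1.77.

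**Figure D5:**
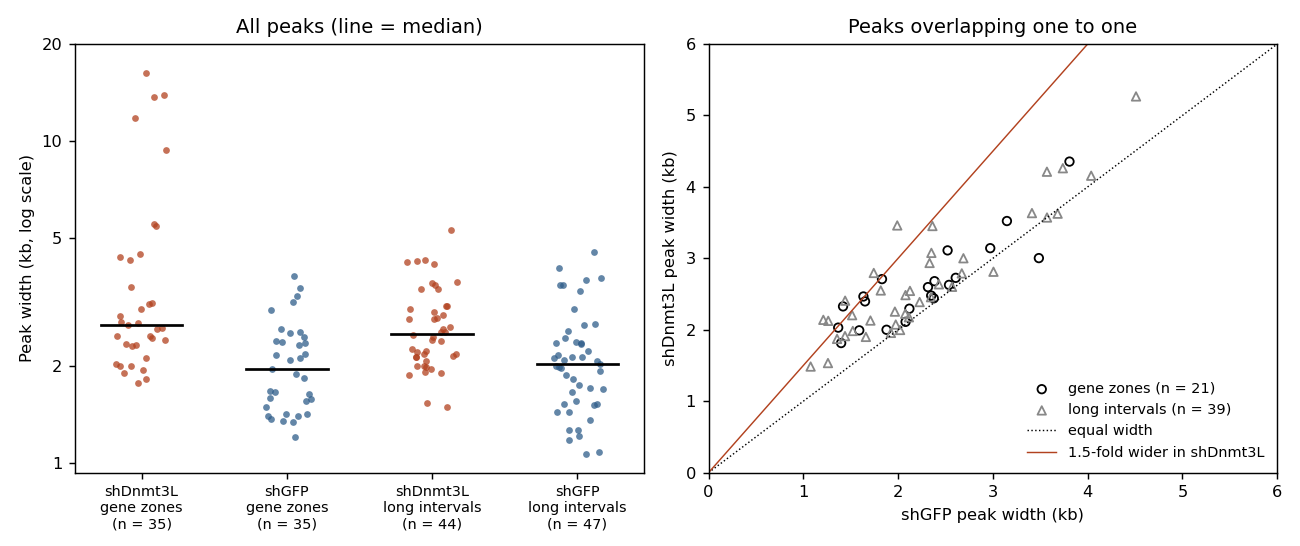
Left, width of every peak in the clusters (kb, log scale) by library, in gene zones and in long intervals, with the median as a line. Right, width in shDnmt3L (y axis, kb) against width in shGFP (x axis, kb) for the 60 one-to-one pairs, with lines for equal width and for 1.5-fold wider in shDnmt3L. Of the 60 pairs, 7 are at least 1.5-fold wider in shDnmt3L, and the highest ratio is 1.77. The wide shDnmt3L peaks of Irx3, Irx5 and Irx4 overlap 2 control peaks each and are therefore not drawn on the right. The points above 9 kb on the left are shDnmt3L peaks of the gene zones.

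Most peaks of the clusters had a partner in the other list. Of the shDnmt3L peaks of both clusters, 15 of 79 had no overlap with a control peak (19.0%, against 12.6% of the whole list). Of the shGFP peaks, 14 of 82 had no overlap with a shDnmt3L peak (17.1%, against 25.5%). The chromosomes differed in this. Unshared shGFP peaks made up 11.3% of the chromosome 8 cluster, against 16.1% of that chromosome. On chromosome 13 they made up 27.6% of the cluster and 27.0% of the chromosome. For shDnmt3L the shares were 15.4% and 10.5% on chromosome 8, and 25.9% and 13.6% on chromosome 13, cluster first. The shared share was 81.0% in shDnmt3L (Wilson 95% interval 71.0 to 88.1%) and 82.9% in shGFP (73.4 to 89.5%). In the gene zones 25 of 35 shDnmt3L peaks were shared, in the long intervals 39 of 44, and the numbers for shGFP were 28 of 35 and 40 of 47. By length, 42.1% of the shDnmt3L peaks in the zones lay under control peaks and 73.9% in the long intervals, against 73.4% over the whole list. Read the other way, 85.0% of the length of shGFP peaks in the zones lay under shDnmt3L peaks, and 88.1% in the long intervals, against 77.3% over the whole list.

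The 15 unshared shDnmt3L peaks had a median width of 2878 bp and a median score percentile of 24.3, against 2474 bp and percentile 32.2 for all unshared peaks of that list. Of the 15, 7 stood below percentile 20. The highest reached percentile 98.3 and the widest 11.8 kb, both in wide stretches described above. The 14 unshared shGFP peaks measured 1066 to 2160 bp, with medians of 1507.5 bp and percentile 12.9, against 1605 bp and percentile 17.8 for all unshared peaks of that list. None of the 14 stood above percentile 48.9. The lower width and score of the shGFP ones was thus also found over the whole lists. The strongest unshared shGFP peaks of chromosome 13 were chr13:72279623-72280794 (score 94.72), chr13:72906380-72908539 (67.18) and chr13:72873021-72874686 (65.75). On chromosome 8 they were chr8:94941953-94943507 (62.5), chr8:94371839-94373253 (60.91) and chr8:94344438-94345637 (59.02). The zone of Irx3 held 5 of these 14 unshared peaks. That zone had 14 shGFP peaks in all, so 35.7% of them were unshared, against 25.5% of the whole list. The Wilson 95% interval of its shared share, 38.8 to 83.7%, included the 74.5% of the whole list.

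Other unshared shDnmt3L peaks stood apart from the wide stretches. In the Irx5 zone, chr8:94982889-94987146 was 4258 bp wide with a score of 404.95, percentile 94.4, and its nearest control peak was 4315 bp away. Between Irx3 and Irx5, chr8:94658663-94662888 was 4226 bp wide with a score of 190.82, percentile 78.9. Beside it stood smaller unshared peaks of 2878 and 2176 bp, and these 3 summed to 9.28 kb in an interval where all 23 control peaks were shared. Together they lay in a group of neighbouring peaks that held 4 shDnmt3L peaks and 1 shGFP peak, with 11.9 kb covered in shDnmt3L and 2.43 kb in shGFP. That place was the largest difference in any long interval. The remaining unshared shDnmt3L peaks had at most percentile 26.2.

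In the gene zones, the median score percentile was higher on chromosome 13 than on chromosome 8 in both lists, but the spreads overlapped. The median score percentile of shDnmt3L peaks was 87.8 in the 3 zones of chromosome 13 (11 peaks) and 49.8 in those of chromosome 8 (24 peaks). The shDnmt3L quartiles were nearly the same, 20.3 to 91.3 on chromosome 13 and 23.3 to 90.7 on chromosome 8. By zone, the shDnmt3L median of Irx3, 77.3, was above those of Irx1, 64.3, and Irx4, 59.0, and below that of Irx2, 91.3. For shGFP the median was 69.8 on chromosome 13 (8 peaks, quartiles 43.4 to 85.4) and 25.6 on chromosome 8 (27 peaks, 19.3 to 70.4). In the long intervals the order of the medians was the opposite, again with overlapping quartiles. The shDnmt3L medians were 47.7 on chromosome 13 and 58.4 on chromosome 8, and the shGFP medians 33.1 on chromosome 13 and 56.2 on chromosome 8.

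The strongest control peaks of the clusters lay elsewhere than the wide stretches, with 1 exception. On chromosome 8 they were chr8:94366082-94369566 (3485 bp, score 596.94), chr8:94268915-94272722 (3808 bp, score 493.99) and the peak at the right edge of the Irx3 stretch (score 434.97), all in the Irx3 zone. The first of these was 3485 bp wide in shGFP and 3003 bp in its shDnmt3L partner, the pair with the lowest width ratio of the clusters. On chromosome 13 they were chr13:72832006-72834354 in the Irx2 zone (2349 bp, score 403.2), chr13:72502040-72505609 between Irx1 and Irx2 (3570 bp, score 395.63) and chr13:72297692-72299657 in the same interval (1966 bp, score 288.37). All 6 had a shDnmt3L partner, and that of the second on chromosome 13 was the 4212 bp peak chr13:72501449-72505660 with a score of 344.35.

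The other wide control peaks were also shared. On chromosome 8 these were chr8:94514662-94518399 (3738 bp), which lay wholly under a shDnmt3L peak, and chr8:95033933-95037503 (3571 bp), which had the same ends in both libraries. On chromosome 13 they were chr13:72438394-72442430 (4037 bp), chr13:72232601-72236283 (3683 bp), chr13:72744934-72747905 (2972 bp) and chr13:72042067-72044603 (2537 bp). At least 93.2% of each of these 4 lay under shDnmt3L peaks. Of the 6, 2 lay in gene zones, those of Irx2 and Irx1, and neither touched the wide stretch of its zone.

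The layout of the clusters differed on chromosomes 8 and 13. When peaks of both libraries were joined across gaps of 20 kb or less, the chromosome 8 cluster formed 16 groups and the chromosome 13 cluster 21. On chromosome 8, 15 groups held peaks of both libraries and 1 was found in shDnmt3L alone, the Irx6 stretch. On chromosome 13, 16 held both, 4 were found in shGFP alone and 1 in shDnmt3L alone, a 2332 bp peak in the Irx4 zone. The 4 groups of shGFP alone were single peaks of 2160 bp or less, 3 of them in the long intervals. Stretches of 50 kb or more with no peak of either library numbered 2 on chromosome 8, with 110 kb in all, and 8 on chromosome 13, with 750 kb in all. The longest was 156 kb, between Irx1 and Irx2. The wide Irx4 stretch was bordered on its left by an empty 119 kb, so it stood in an otherwise nearly bare region in both libraries.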

How the data were processed

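The deposited files are 1 peak list per library. The authors' lists give each peak a position and a score, the value of their peak caller. The submitters' processing notes name the build mm9 and the tools MACS 1.4.1, Bowtie 0.12.7 and CASAVA 1.8. What each tool did, whether an input control was used, and how deeply the libraries were sequenced is not given in the sources used here. More depth or longer fragments can give more or wider peaks. Scores were compared within a list only. Coordinates count the first base as 1.

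The computations ran in Python 3.11.15 with scipy 1.17.1, pandas 2.3.3, numpy 2.4.6 and matplotlib 3.10.9. Peaks were shared at 1 bp of overlap. Covered length was clipped to each region, and peaks were assigned to zones and long intervals by their midpoint. Windows needed 20 kb (200 kb windows: 5 kb) covered in the lists together. Overlap and coverage counts were checked on simulated intervals. No test was possible with 1 library per group. Peaks named in the text were, per cluster and list, the 5 widest, the 3 of highest score, the 3 of highest score without overlap, and all of 10 kb or more; a few others were named after their values were seen. The members, regions and measures were chosen with earlier results of these data known. Alternatives were equal list lengths, only scores of 100 or more, merging within 500 bp, other overlaps, zone sizes, interval and joining distance.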

Additional observations from a re-analysis of the deposited data

How the results depend on the processing

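Of 74 alternative values, 69 stayed within their range (the counting interval for shares and ratios, a factor of 1.5 for counts, and for pair widths the spread between pairs), 5 moved and 0 reversed. With 10 kb in place of 5 kb, 2 shDnmt3L peaks of the chromosome 8 cluster were wide, and with merging within 500 bp 1 shGFP peak there reached 5 kb. On chromosome 8 the share of shGFP peaks with a partner was 95.3% with lists of equal length and 77.4% at 50% overlap of both peaks, against 88.7%, and on chromosome 13 it was 92.3% at a minimum score of 100, against 72.4%. Values near 0 changed sign within their range. The log2 ratio of peak numbers was 0.23 on chromosome 8 and 0.21 on chromosome 13 at scores of 100 or more, and for equal list lengths it was 0.27 on chromosome 8 and 0.23 on chromosome 13, against −0.03 and −0.10 in the full lists. That of covered length in the chromosome 13 long intervals was 0.20 at scores of 100 or more, 0.33 with lists of equal length and 0.02 with zones of 150 kb on either side, against −0.06. The gene zones kept a positive log2 ratio under every alternative run, from 0.64 to 1.39 on chromosome 8 and from 1.16 to 2.62 on chromosome 13. The causes were not tested. No paired analysis was possible because the groups hold a single library each. How far weak peaks could be detected is unknown, since the depth is.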
